A study of Homo sapiens with 6 samples.

Results

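AP-1 is a transcription factor assembled from pairs of basic leucine zipper proteins, chiefly 1 protein of the FOS family with 1 of the JUN family. The 8 subunit genes described here are FOS, FOSB, FOSL1 and FOSL2 of the FOS family, JUN, JUNB and JUND of the JUN family, and BATF3, a small relative that pairs with JUN proteins. They were taken by gene name from the 58735 named genes of the expression table, and were chosen with earlier results of these data known. All 8 passed the filter on low counts that left 14280 genes for testing. The cells are 8505C, a human anaplastic thyroid carcinoma line in long use, known to carry an activating BRAF mutation. One group of 3 libraries came from cells with a control short hairpin RNA, whose genotype label reads wild type, and the other group of 3 from cells with a hairpin against the homeobox gene HHEX. Both groups are labelled untreated and were grown in multiwell plates. The sources used here do not give how the hairpins were delivered, nor whether the cells were a pool or a clone. The libraries are called control1 to control3 and KD1 to KD3, after the columns of the count table, and the labels call them biological replicates without saying that they came from separate cultures. P-values therefore reflect only how these libraries vary, and some of that variation may be technical. By the sample titles, 2 samples of each group share the first part of their replicate number and the other sample has its own. What that part marks is not stated, and the columns cannot be tied to the titles. If samples that share it came from 1 culture, a group holds fewer independent replicates than libraries and the p-values are too small. In bulk RNA, fewer cells making a transcript and less of it per cell cannot be told apart.

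FOS and FOSB are immediate early genes, transcribed within minutes of a stimulus and then shut off, with short-lived mRNAs. FOSL1 (FRA-1) and FOSL2 (FRA-2) lack the strong activation domain of FOS, accumulate later and persist while ERK signalling lasts, and FOSL1 is known as the prevailing FOS protein of many invasive carcinoma cells. FOS proteins cannot pair with themselves, so they need a JUN partner, whereas JUN proteins can also pair with each other.

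HHEX was checked first, since it is the gene targeted. Its level in CPM, the read count scaled to library size with TMM factors, was 12.6 in control1, 12.8 in control2 and 11.98 in control3. KD1 held 14.8 CPM, KD2 7.93 and KD3 7.12. The library labelled KD1 thus held no less HHEX mRNA than the controls, and the groups did not differ past the threshold of edgeR's quasi-likelihood fit (log2 fold change −0.33, SE 0.28, Benjamini-Hochberg adjusted p = 0.527). The log2 fold change of HHEX was −0.73 without KD1, −0.18 without KD2 and −0.11 without KD3, with edgeR adjusted p-values of 0.33 to 0.859 over the alternatives. KD1, which goes against its label, is part of every group value here unless said to be left out. Totals over named genes ran from 13333245 to 15144176 counts, and mitochondrial genes took 3.61% to 4.33%. Across the tested genes KD1 and KD2 resembled each other (Pearson r = 0.989 of log2 CPM) more than either resembled KD3 (0.955 and 0.956), while r of KD3 to each control was 0.971 to 0.977. Of the thyroid markers, TG, TSHR and SLC5A5 lay at no more than 0.299 CPM in any library, while the thyroid transcription factor NKX2-1 lay at 18.0 to 50.5 CPM. The leukocyte markers summed to 2.99 to 4.71 CPM in the controls and 3.03 to 4.25 CPM in the libraries labelled HHEX shRNA. CD14 made up most of each sum, at 2.76 to 4.71 CPM in the controls and 2.11 to 4.25 in KD1 to KD3. LYZ was at 0 in all 6. The fibroblast markers summed to 43.7 to 56.0 CPM in the controls and 14.5 to 48.2 in KD1 to KD3. The endothelial markers summed to 29.3 to 35.1 and 15.4 to 22.8 CPM.

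FOSL1 and FOSL2 were higher in all 3 libraries labelled HHEX shRNA, by 1.82 to 2.72 times and 1.35 to 1.57 times the control mean. FOS and FOSB were 35.8 and 22.5 times the control mean in KD3, and 0.983 to 1.46 times in KD1 and KD2. JUND was lower, at 30.4% to 58.6% of the control mean. By edgeR 0 of the 8 members passed an adjusted p of 0.05 over all genes, where 0.182% of the tested genes did. At an unadjusted p under 0.05 there were 6 of 8, against 20.6% of all tested genes. DESeq2 called FOSL1, FOSL2 and JUND, or 3 of the 6 members to which it gave an adjusted p, against 6.1% of genes with one. Groups did not overlap for 4 members that were higher (FOS, FOSL1, FOSL2 and JUN), where 11.6% of all genes were higher without overlap, and for 1 that was lower (JUND), where 13.3% of genes were. The median log2 fold change of the 8 was 0.65, beside −0.01 for all tested genes.

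**Figure D1:**
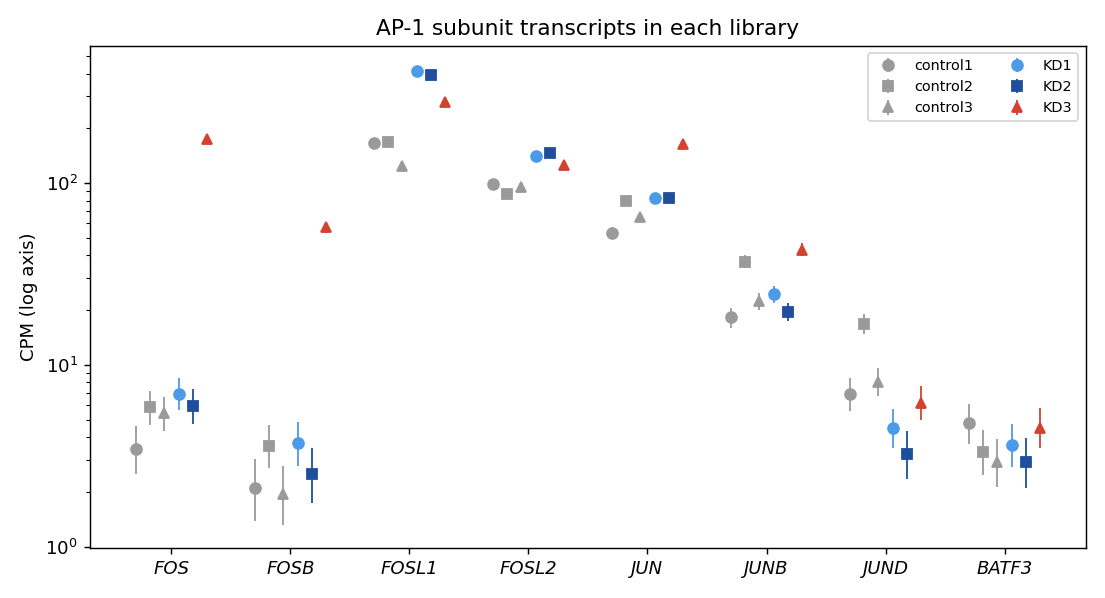
Level of each AP-1 subunit transcript in CPM (log axis) by library, with exact 95% Poisson intervals that cover counting error only; grey symbols are the controls, light blue KD1, dark blue KD2 and red KD3. FOS and FOSB stand far above the other libraries in KD3 alone, at 175 and 57.2 CPM, while FOSL1 and FOSL2 are above every control in all 3 libraries labelled HHEX shRNA.

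FOSL1 (ENSG00000175592, chromosome 11, 65892049 to 65900573, minus strand, GRCh38 by its match to GENCODE) was the most abundant member. Its level was 165.5, 169 and 124 CPM in control1, control2 and control3. In KD1 it was 415 CPM, in KD2 394 and in KD3 278. All 3 libraries labelled HHEX shRNA were above all controls, with KD3 between the controls and the other 2. Its log2 fold change of 1.25 had an SE of 0.19 and a 95% confidence interval of 0.80 to 1.69, and missed the threshold at an adjusted p of 0.0518 by edgeR. Permuting the 6 libraries gave an exact two-sided p of 0.1, the smallest that 3 against 3 allow. FOSL1 passed by DESeq2 (adjusted p = 3.23e-06) and by edgeR without KD3 (log2 fold change 1.43, adjusted p = 1.26e-05), a fit that called 31.6% of all genes. Over the alternatives its adjusted p ranged from 4.02e-11 to 0.29 and its log2 fold change from 1.11 to 1.43.

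FOSL2 (ENSG00000075426, chromosome 2, 28392448 to 28417312, plus strand) showed the same order of groups with a smaller difference. The controls held 99.1, 86.6 and 94.8 CPM, against 140 CPM in KD1, 147 in KD2 and 126 in KD3. The groups did not overlap, and KD3 was again the lowest of its group. FOSL2 thus had a log2 fold change of 0.56, with SE 0.12, a 95% confidence interval of 0.29 to 0.83 and an adjusted p of 0.0968 by edgeR. Its adjusted p was 0.00834 by DESeq2 and 0.000747 by edgeR without KD3, within a range of 0.000747 to 0.358 over the alternatives. The antisense gene FLJ31356 shares part of its span, and held at most 2.14 CPM in any library. AC104695.3, within an intron of FOSL2 on the same strand, held at most 1 read in any library.

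FOS (ENSG00000170345, chromosome 14, 75278774 to 75282230, plus strand), the founding member of the family, gave another picture. It was low in 5 libraries, with 3.44, 5.84 and 5.40 CPM in the controls, 6.94 in KD1 and 5.93 in KD2. In KD3 it reached 175 CPM (exact 95% Poisson interval 168 to 182, from 2486 reads). The groups did not overlap, but the margin of KD2 over control2, 5.93 against 5.84 CPM, lay within their Poisson intervals (4.72 to 7.35 and 4.69 to 7.20). The log2 fold change of 3.67 had an SE of 1.42 (edgeR adjusted p = 0.22), and without KD3 it was 0.42 (adjusted p = 0.257). Over the alternatives the adjusted p ran from 0.17 to 0.489. By log2 difference from the control mean in KD3, FOS ranked 3 of the 14280 tested genes.

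FOSB (ENSG00000125740, chromosome 19, 45467995 to 45475179, plus strand) shared this pattern. The controls held 2.09, 3.59 and 1.95 CPM, KD1 3.71, KD2 2.50 and KD3 57.2 CPM (KD3's Poisson interval 53.4 to 61.3, from 812 reads). KD2 fell inside the control range, so the groups overlapped. Its log2 fold change was 3.05 (SE 1.20, edgeR adjusted p = 0.218), and 0.31 without KD3 (adjusted p = 0.564, the highest over the alternatives, whose lowest was 0.189). FOSB ranked 5 of 14280 by its difference in KD3. DESeq2 gave neither FOS nor FOSB an adjusted p. FOSB overlaps ERCC1 on the other strand, and no source used here says that reads were assigned by strand. Reads from the span that FOSB and ERCC1 share therefore cannot be told apart. ERCC1 lay at 62.0 CPM in KD3, within its control range of 59.0 to 76.1 CPM.

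The stretches just upstream of the RefSeq start sites of FOS and FOSB are shown because these 2 genes moved together in KD3. They lie on the plus strand of GRCh38.p14 at chr14:75278728-75278827 and chr19:45467896-45467995, from 100 bases before the start site to 1 base before it, written 5′ to 3′. Capitals mark TGACG, the first bases of a cAMP response element, and TATAA, the core of a TATA box.
FOS: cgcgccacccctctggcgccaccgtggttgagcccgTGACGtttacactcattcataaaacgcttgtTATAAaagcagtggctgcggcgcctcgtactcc
FOSB: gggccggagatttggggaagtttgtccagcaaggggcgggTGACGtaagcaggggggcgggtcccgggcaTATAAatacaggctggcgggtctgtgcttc
TGACG starts at −64 in FOS and −60 in FOSB, and TATAA at −33 and −30, counted from the start site. RefSeq windows from 250 bases before to 50 after the start site were found for 6 of the 8 members, not for FOSL1 or BATF3. Of 35116 such windows, 24.55% hold TGACG on either strand, 14.83% hold TATAA on the gene's strand, and 2.54% hold both. Of the other 4 members, JUNB and JUND hold both as well, and FOSL2 and JUN hold TGACG without TATAA. The AP-1 motif TGANTCA, searched on both strands and held by 7.71% of windows, was matched in FOSL2 only among the 6, as TGACTCA from position 5. JUN holds TGACATCA at −67 (2.61% of windows on either strand) and JUND the full element TGACGTCA at −200 (1.85%), which overlaps 2 of its 3 TGACG matches. A match is a match of letters, and the counts here do not bear on binding.

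The contrast between the rapidly induced and the sustained FOS genes was taken per library, as the mean log2 difference of FOS and FOSB from the control mean, and that of FOSL1 and FOSL2. For FOS and FOSB KD1 gave 0.55, KD2 0.17 and KD3 4.81, and for FOSL1 and FOSL2 they gave 1.02, 1.02 and 0.66. The first minus the second was −0.47 for KD1, −0.85 for KD2 and 4.16 for KD3. The controls, each set against the other 2, gave differences of −0.67, 0.57 and 0.10. KD1 was inside the control range, KD2 below it and KD3 above it. With 1 control left out at a time, KD1 gave −0.69 to −0.28, KD2 −1.07 to −0.66 and KD3 3.93 to 4.35. These values are given without a test.

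**Figure D2:**
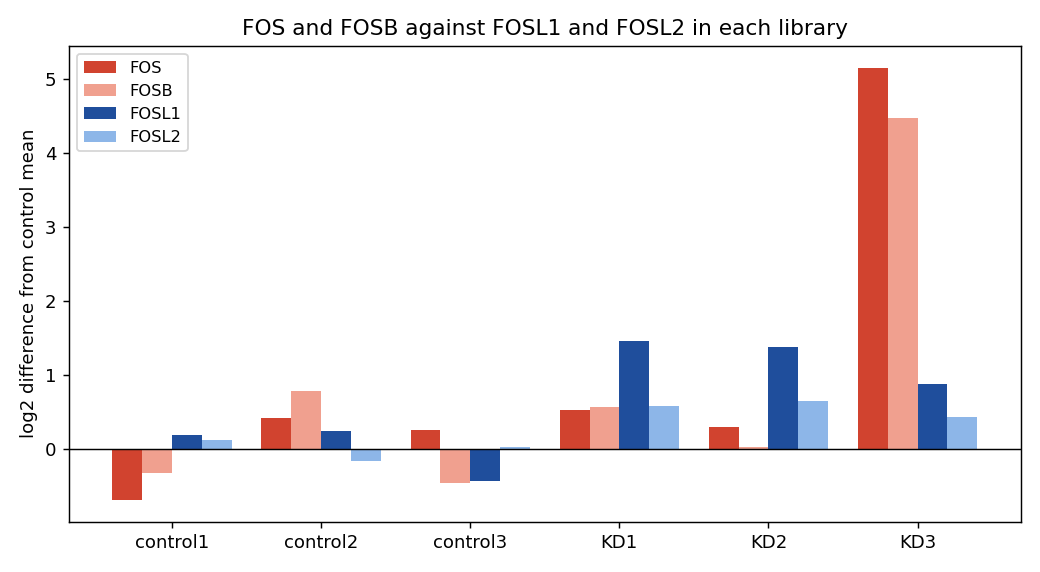
Log2 difference of FOS, FOSB, FOSL1 and FOSL2 from the control mean in each library (a control from the mean of the other 2); bars are single libraries. FOSL1 is the tallest bar in KD1 and KD2, at 1.46 and 1.38, and FOS in KD3, at 5.16.

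Levels of different genes were compared per length, as CPM per kilobase of merged exons. In the controls the order was FOSL1 at 81.0 ± 13.4 (SD, n = 3), JUN at 18.6 ± 3.68, JUNB at 14.2 ± 5.40, FOSL2 at 13.1 ± 0.887, JUND at 5.68 ± 2.87, FOS at 1.51 ± 0.396, BATF3 at 1.36 ± 0.360 and FOSB at 0.458 ± 0.163. The ranges of JUN and JUNB overlapped, as did those of JUNB and FOSL2 and of FOS and BATF3, and all other neighbours in this order were separate. FOSL1 made up 84.1% ± 2.62 (SD, n = 3) of the FOS family sum in the controls, FOSL2 13.8% ± 2.41, FOS 1.61% ± 0.528 and FOSB 0.474% ± 0.131.

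The sum of the 4 FOS family transcripts per kilobase was 103, 104 and 80.8 in control1, control2 and control3, and 242, 232 and 229 in KD1, KD2 and KD3. The sum was therefore similar in the 3 libraries labelled HHEX shRNA, while its makeup was not. FOSL1 gave 90.8% of it in KD1, 90.2% in KD2 and 64.2% in KD3. FOS gave 0.884%, 0.79% and 23.6%, and FOSB 0.275%, 0.194% and 4.49%. Per kilobase of the longest transcript, in place of merged exons, the shares in KD3 were 59.1% for FOSL1 and 28.8% for FOS. Even in KD3 FOSL1 remained the main FOS family transcript, at 2.72 times FOS per kilobase, beside 39.3 to 82.6 times in the controls and 103 and 114 times in KD1 and KD2. FOSL2, which gave 11.6% to 16.4% in the controls, gave 7.70% to 8.86% in the libraries labelled HHEX shRNA.

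**Figure D3:**
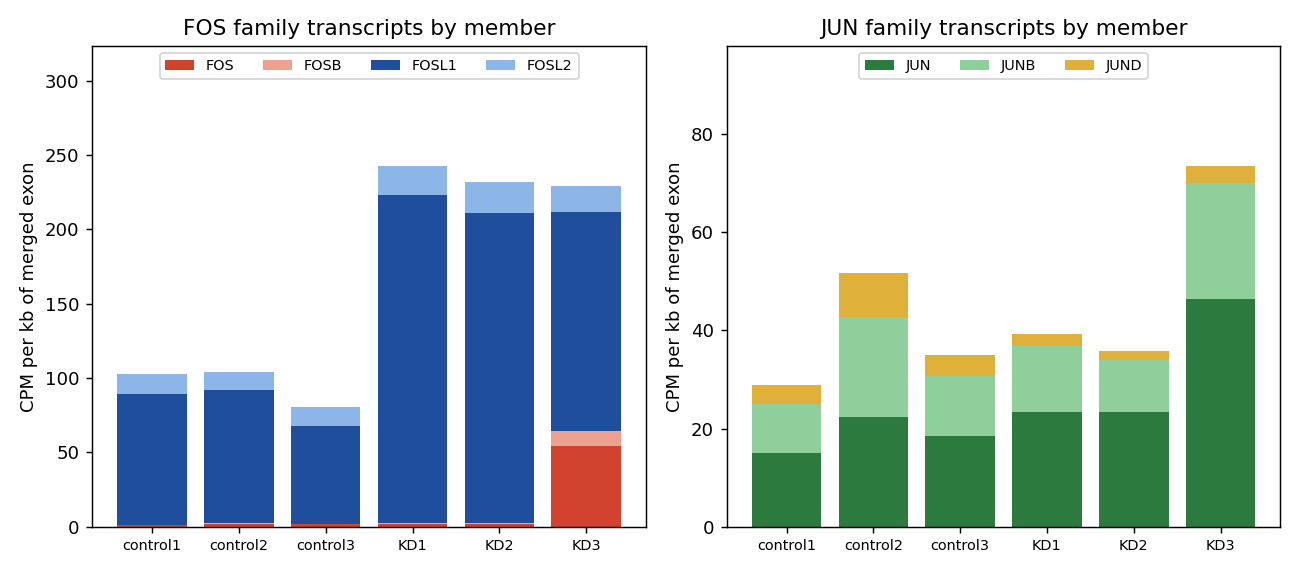
Stacked CPM per kilobase of merged exon for the FOS family (left) and the JUN family (right) in each library; segments are the members and bars are single libraries. The FOS family bars reach 229 to 242 in KD1, KD2 and KD3 against 80.8 to 104 in the controls, with a FOS segment visible in KD3, and the JUN family bar is highest in KD3, at 73.5.

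JUN (ENSG00000177606, chromosome 1, 58780788 to 58784327, minus strand), the best known partner of FOS, had 53.3, 79.3 and 65.4 CPM in control1, control2 and control3. KD1 had 82.9 CPM, KD2 82.5 and KD3 165. KD1 and KD2 were just above control2 and KD3 was 2.49 times the control mean. The groups differed by 0.74 in log2 units (SE 0.29, adjusted p = 0.21 by edgeR), and by 0.35 without KD3 (adjusted p = 0.0869). Its adjusted p ranged from 0.000594 to 0.443 over the alternatives, and it passed with no filter on low counts. JUN was also 1 of 3 members, with FOS and FOSB, more than 2-fold above the control mean in KD3, where 1.91% of tested genes were. In KD1 and in KD2 the only such member was FOSL1, where 3.94% and 4.27% of genes were.

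JUNB (ENSG00000171223, chromosome 19, 12791496 to 12793315, plus strand), which can restrain JUN in proliferating cells, spread widely within both groups. Controls ranged over 18.2, 36.9 and 22.3 CPM, and KD1, KD2 and KD3 over 24.5, 19.6 and 43.0. The highest library was KD3 and the next was control2, so the groups overlapped. Its log2 fold change was 0.17 with SE 0.35 (adjusted p = 0.812 by edgeR), and became −0.21 without KD3 and −0.01 without control1. JUNB overlaps HOOK2 on the other strand, which lay at 20.4 to 36.2 CPM.

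JUND (ENSG00000130522, chromosome 19, 18279760 to 18281622, minus strand), a JUN gene transcribed in most cells without a stimulus, was the member that lay lower. The controls had 6.95, 16.7 and 8.07 CPM. KD1 had 4.52, KD2 3.21 and KD3 6.20. The groups did not overlap, though the Poisson intervals of KD3 and control1 did (4.97 to 7.64 and 5.61 to 8.51 CPM). Its log2 fold change was −1.19 with SE 0.38 (adjusted p = 0.155 by edgeR), and became −0.68 without control2, the library with the highest JUND (adjusted p = 0.401). DESeq2 called it (adjusted p = 0.0492), as did edgeR without KD3 (log2 fold change −1.43, adjusted p = 0.014), and over the alternatives its adjusted p ran from 0.00157 to 0.442. Within the JUN family sum per kilobase JUND gave 12.4% to 17.4% in the controls and 4.53% to 6.17% in the libraries labelled HHEX shRNA, and JUN 43.4% to 52.7% and 59.6% to 65.1%. The JUN family sum itself was 28.8, 51.7 and 35.1 in the controls and 39.3, 35.8 and 73.5 in KD1, KD2 and KD3.

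BATF3 (ENSG00000123685, chromosome 1, 212686418 to 212699985, minus strand) has a leucine zipper but no activation domain and is best known from dendritic cells. Controls had 4.78, 3.32 and 2.93 CPM, KD1 3.64, KD2 2.93 and KD3 4.51. The groups overlapped, and the log2 fold change was 0.01 with a 95% confidence interval of −0.69 to 0.70 (edgeR adjusted p = 0.989). Its sign turned under no scaling (−0.03) and upper-quartile scaling (−0.05).

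Other basic leucine zipper partners of AP-1 were read from a list of 14 genes that also holds BATF3. Of the 10 tested, 0 passed edgeR's test and 0 had an unadjusted p under 0.05, against 0.182% and 20.6% of all tested genes. DESeq2 called 0, against 6.1% of genes with an adjusted p. Without KD3 edgeR called 3 of them lower and 0 higher, in a fit that called 31.6% of all genes. The median log2 fold change with all libraries was −0.15. BATF and MAF had 0 reads in all libraries, which allows up to 0.195 to 0.224 CPM per library at a floor of 3 counts. JDP2, a repressor that pairs with JUN, had 18.8 to 21.6 CPM among the controls, 6.33 in KD1, 3.36 in KD2 and 19.0 in KD3 (log2 fold change −1.09, edgeR adjusted p = 0.299, and 5.09e-05 without KD3). ATF3, a stress-induced partner named after its values were seen, had 28.5 to 31.7 CPM among the controls, 6.54 in KD1, 7.07 in KD2 and 121 in KD3. KD3 was above the controls for ATF3, and KD1 and KD2 were below them. DESeq2 gave ATF3 no adjusted p. MAFF, a small MAF protein, had 42.0 to 51.1 CPM among the controls and 40.1, 39.0 and 82.9 in KD1, KD2 and KD3, and ATF2, MAFK and BATF2 had adjusted p-values of 0.403, 0.656 and 0.595 by edgeR.

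Of 24 tested genes of the RAS and MAP kinase cascades, 0 passed edgeR's test, where 0.182% of all tested genes did. An unadjusted p under 0.05 was held by 6 (5 higher and 1 lower), against 20.6% of all tested genes. DESeq2 called 2, against 6.1% of genes with an adjusted p. Without overlap 6 were higher and 1 was lower, where 11.6% and 13.3% of all tested genes were. The median log2 fold change was 0.19. MAP2K1, which encodes the kinase MEK1 above ERK, had 65.7, 69.4 and 64.0 CPM among the controls, 104 in KD1, 92.5 in KD2 and 82.3 in KD3 (log2 fold change 0.49, SE 0.13, edgeR adjusted p = 0.119). MAP2K4 (log2 fold change 0.38), MAP2K3 (0.33) and NRAS (0.32) also had groups that did not overlap, with edgeR adjusted p-values of 0.145 to 0.211. MAP2K2, named after its values were seen, was the 1 gene lower at an unadjusted p (log2 fold change −0.38, edgeR adjusted p = 0.242). It had 105 to 148 CPM among the controls, 96.6 in KD1, 80.1 in KD2 and 109 in KD3, with overlapping groups. MAP2K6, a kinase above p38, had 3.12 to 4.56 CPM among the controls, 17.1 in KD1, 19.6 in KD2 and 3.03 in KD3 (log2 fold change 1.81, SE 0.61, edgeR adjusted p = 0.176, and 6.95e-06 without KD3), and DESeq2 called it (adjusted p = 0.0168).

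Of 11 tested factors that drive FOS transcription (the serum response factor, its ETS partners, the kinases RSK and MSK), 0 passed edgeR's test. At an unadjusted p under 0.05 there were 2, against 20.6% of all tested genes. DESeq2 called 0 of them, against 6.1% of genes with an adjusted p, and the median was 0.19. SRF had 66.1 to 70.2 CPM among the controls, 93.5 in KD1, 82.3 in KD2 and 81.6 in KD3 (log2 fold change 0.33, edgeR adjusted p = 0.181). RPS6KA3 (RSK2) lay at 0.48 on the log2 scale (edgeR adjusted p = 0.147), ELK1 at 0.31 and CREB1 at 0.19. RPS6KA2 (RSK3), in contrast, had 2.56 CPM in KD1 and 2.14 in KD2, below the controls (19.99 to 23.2), and 24.5 in KD3. Without KD3 its log2 fold change was −3.18 (edgeR adjusted p = 6.47e-07), and DESeq2 gave it no adjusted p. Among 13 genes that restrain AP-1 or affect the turnover of its proteins or mRNAs, in either direction, 0 passed edgeR's test. At an unadjusted p under 0.05 there was 1, against 20.6% of all tested genes. By DESeq2 0 were called, against 6.1% of genes with an adjusted p, and the median was 0.14. DUSP1, a phosphatase of MAP kinases and itself an immediate early gene, had 197 to 240.0 CPM among the controls, 250 in KD1, 239 in KD2 and 484 in KD3. Also named by the smallest p were ELAVL1 (0.36), COP1 (0.33) and DET1 (−0.56), given as log2 fold changes with edgeR adjusted p-values of 0.248 to 0.344.

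Among 27 tested genes known as AP-1 targets, 2 rose by edgeR's test over all genes and 0 fell. Of all tested genes 0.182% passed in either direction. MMP3, a matrix protease, rose from 5.83, 8.30 and 5.01 CPM in control1, control2 and control3 to 24.1 in KD1, 23.4 in KD2 and 39.1 in KD3 (log2 fold change 2.18, SE 0.28, edgeR adjusted p = 0.0335). CXCL8, a neutrophil chemokine, rose from 29.4, 38.6 and 24.3 CPM to 76.2, 79.0 and 99.2 CPM (1.46, SE 0.19, edgeR adjusted p = 0.0387). Without KD1, KD2 or any 1 control both calls were lost, in fits that called 0 or 1 of all genes, at adjusted p-values of 0.0658 to 0.208. Both were also lost with a mean of at least 5 CPM (0.0527 and 0.0547), and both held without KD3. With 1 library left out the log2 fold change ranged from 1.92 to 2.43 for MMP3 and from 1.32 to 1.67 for CXCL8. DESeq2 called 10 of the 27 higher and 1 lower, against 6.1% of all genes with an adjusted p in both directions.

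The list had 10 genes higher without overlap and 1 lower, where 11.6% and 13.3% of all tested genes were. Its median log2 fold change was 0.36 beside −0.01 for all genes. LIF, a cytokine, and GJA1, a gap junction protein, lay at 1.08 and 0.65 (edgeR adjusted p = 0.0817 and 0.094). Other targets went in different directions. MMP1, a collagenase named after its values were seen, had 4367 to 5676 CPM among the controls and 3905, 3621 and 5656 in KD1, KD2 and KD3, with overlapping groups. AREG, an EGF receptor ligand named after its values were seen, had 52.1 to 87.4 CPM among the controls and 21.0, 16.7 and 48.4. It was the 1 gene lower without overlap (log2 fold change −1.21, edgeR adjusted p = 0.177). DESeq2 called it (adjusted p = 0.0271), as did edgeR without KD3 (adjusted p = 0.000134). HBEGF and IL1A, named in the same way, were highest in KD3. HBEGF, another EGF receptor ligand, had 22.5 to 27.0 CPM among the controls and 36.5, 31.1 and 69.6 in KD1, KD2 and KD3. It was thus higher without overlap (log2 fold change 0.89, edgeR adjusted p = 0.155), and DESeq2 called it (adjusted p = 0.0412). IL1A, a cytokine, had 29.01 to 31.8 CPM among the controls and 9.30, 8.57 and 67.4.

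**Figure D4:**
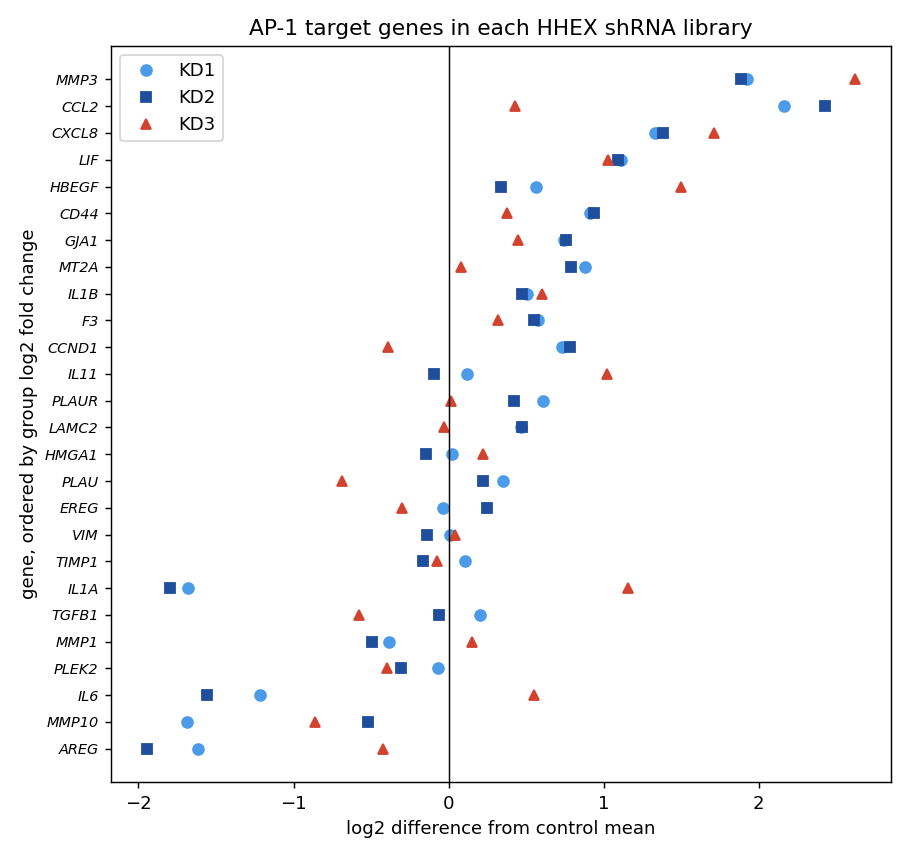
Log2 difference from the control mean of 26 of the 27 tested AP-1 target genes in KD1 (light blue circles), KD2 (dark blue squares) and KD3 (red triangles), ordered by the log2 fold change of the groups. MMP3 and CXCL8 lie to the right of 0 in all 3 libraries, and IL1A lies left of 0 in KD1 and KD2 and right of it in KD3.

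Other immediate early genes were read beside FOS and FOSB. Of 16 tested, SGK1 rose, from 61.9 to 68.2 CPM among the controls to 202 in KD1, 191 in KD2 and 140 in KD3 (log2 fold change 1.43, SE 0.16, edgeR adjusted p = 0.0192), and 0 fell. That call, too, was lost without KD1, KD2 or any 1 control, where its log2 fold change was 1.33 to 1.48. Groups did not overlap for 8 of the 16, all higher, where 11.6% of all tested genes were higher without overlap. KD1 gave the list a median log2 difference of 0.42, KD2 0.35 and KD3 0.82, while controls gave −0.10 to 0.11. EGR1, a zinc finger factor named after its values were seen, had 34.9 to 42.6 CPM among the controls, 17.6 in KD1, 19.3 in KD2 and 357 in KD3. CYR61 (0.57), CTGF (0.50), KLF6 (0.56) and IER5 (0.73) had groups that did not overlap, with edgeR adjusted p-values of 0.114 to 0.153. IER2, also named after its values were seen, had 24.2 to 34.8 CPM among the controls and 31.2 in KD3.

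Heat shock genes, which some stresses induce together with FOS, differed by a median of 1.32 for KD1, 1.29 for KD2 and 1.38 for KD3 on the log2 scale. Of 10 tested, 4 rose by edgeR's test (HSPA8, HSP90AA1, HSPH1 and DNAJA1) and 0 fell, where 0.182% of all tested genes passed. These 4 calls were lost without KD1, KD2 or any 1 control. HSPA8 also lost its call by edgeR without robust estimation (adjusted p = 0.0544) and with a mean of at least 5 CPM (0.0665). With 1 library left out the log2 fold changes were 1.17 to 1.40 for HSPA8, 1.41 to 1.56 for HSP90AA1, 1.36 to 1.42 for HSPH1 and 1.21 to 1.30 for DNAJA1. HSPA1B, named after its values were seen, had 22.8 to 36.6 CPM among the controls, 99.7 in KD1, 109 in KD2 and 698 in KD3. Its near-identical copy HSPA1A makes the split of reads between them uncertain. Transcripts listed as marks of RNA quality differed by a median of −0.62 for KD1, −0.33 for KD2 and 0.08 for KD3, beside −0.42 to 0.50 among the controls. NEAT1 of that list had 551 to 1115 CPM among the controls and 426 to 502 in KD1, KD2 and KD3. SNHG1 had 223 to 305 CPM among the controls, 92.7 in KD1, 90.7 in KD2 and 313 in KD3. GAS5 had 354 to 553 CPM among the controls, 142 in KD1, 120 in KD2 and 556 in KD3. MALAT1 stayed within its control range of 251 to 411 CPM, with 316, 400 and 262 in KD1, KD2 and KD3. The part of stress or RNA quality in the levels of FOS and FOSB was not tested.

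Genes with patterns like FOS and like FOSL1 were ranked by Pearson correlation of log2 CPM over the 6 libraries, among 10673 other genes with a mean of at least 5 CPM. For FOS the 5 closest were RRP15 (r = 0.993), SRFBP1 (0.992), IMPA1 (0.991), HSPA6 (0.989) and MIR22HG (0.988), with FOSB next at 0.988. All 5 are highest in KD3. HSPA6, an inducible heat shock protein, had 1.94 to 4.51 CPM among the controls, 5.53 in KD1, 5.07 in KD2 and 222 in KD3, whereas RRP15 had 66.3 to 73.6 CPM in 5 libraries and 102 in KD3. For FOSL1 they were EDNRB (0.998), OSBP2 (0.998), PPID (0.996), GJA1 (0.996) and AP1S3 (0.994). GJA1 of these is on the list of AP-1 targets, with 74.9 to 90.6 CPM among the controls, 141 in KD1, 142 in KD2 and 114 in KD3. FOSL2 correlated with FOSL1 at 0.939 and FOS with FOSL1 at 0.259. Such coefficients over 6 libraries that fall into few groups are a description of these libraries.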

How the data were processed

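The authors deposited 1 table with raw counts per gene for 6 libraries, per the file headers. RNA was isolated with Trizol and libraries came from captured mRNA, per the labels' protocols. The sources used here do not name the aligner, counter, strand setting or build. Coordinates of 58683 of 58735 named genes equal GENCODE 29 (GRCh38). Rows without a gene name, 998 in all, held 0.239% to 0.298% of counts and were left out. A further 6 columns of per-library values were not used. Column names give the group but not the replicate, and the deposited gene length (another column by the authors) was not used.

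Counts were tested with edgeR 4.0.16 in R 4.3.3 (filterByExpr by group, TMM, robust glmQLFit and glmQLFTest), adjusted over all 14280 tested genes at 0.05. The SE is the log2 fold change divided by the root of F. DESeq2 1.42.0 was an alternative, beside other scalings, filters and each library left out. Log2 CPM used a prior count of 2. Levels per length used merged exons of GENCODE. On simulated data for this comparison the fit found 62 of 100 genes changed 2-fold and 93 of 100 changed 4-fold, and called 7 of 13825 unchanged genes. The simulated libraries of a group were drawn alike, whereas KD3 stood apart from KD1 and KD2. These shares therefore need not hold for the real libraries.

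The members and all lists were chosen with earlier results of these data known. All 167 entries of 15 lists matched a gene. Named are the members, HHEX, up to 5 tested genes with the smallest p per pathway list, any called list gene, and the 5 genes most correlated with FOS and with FOSL1. Some genes of the lists are counted but not reported here by name. Other genes named are markers, overlapping genes, or said to be chosen after their values were seen. Poisson intervals and floors (3 counts) cover counting error only.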

Additional observations from a re-analysis of the deposited data

How the results depend on the processing

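Between 13333245 and 15144176 counts per library leave FOS, FOSB, JUND and BATF3 with at most 124 reads each in at least 5 libraries, which limits their precision. No paired analysis was possible because the columns carry the group but not the replicate numbers of the labels (2 samples of each group share the first part of theirs), so the replicate block was not run. Levels per length as deposited were not run either. BATF3 has no value with a mean of at least 5 CPM, and FOS and FOSB have no adjusted p by DESeq2.

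With no filter on low counts, which tested every named gene with any read, 4 members passed, and 1359 genes in all. The share of genes called in that fit is not given here. The log2 fold changes were then 1.25 for FOSL1, 0.57 for FOSL2, 0.74 for JUN and −1.18 for JUND. DESeq2 called 3 members and 854 genes, with 1.27 for FOSL1, 0.58 for FOSL2 and −1.17 for JUND. A mean of at least 5 CPM left 9 changed genes. BATF3 turned to −0.048 with upper-quartile scaling and −0.032 with no scaling beyond library size. By the longest transcript the control level per kilobase was 2.27 for FOS and 0.674 for FOSB, in place of 1.51 and 0.458. The cause of these shifts was not tested.

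Leaving out 1 library at a time gave 0 to 4675 changed genes and 0 to 3 called members. The edgeR count was 0 without KD1, KD2, control2 or control3, where 1789, 1625, 1947 and 1806 genes had an unadjusted p under 0.05. It was 1 without control1 and 4675 without KD3. The log2 fold changes ranged from 1.11 to 1.43 for FOSL1, 0.52 to 0.64 for FOSL2, −0.21 to 0.53 for JUNB, −1.43 to −0.68 for JUND, −0.73 to −0.11 for HHEX and −0.13 to 0.27 for BATF3. For genes that turned direction they ranged from −2.12 to 1.10 for ATF3, −1.01 to 2.31 for EGR1, −1.73 to 0.35 for IL1A, −0.18 to 0.44 for MAFF, −0.21 to 0.13 for MALAT1 and −0.0054 to 0.30 for NKTR.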
